A study of Mus musculus with 8 samples.

Results

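The miR-10 and miR-196 genes lie inside the Hox gene clusters, and the reads from their hairpins were followed here through 8 small-RNA libraries of NIH-3T3, a fibroblast line that was immortalised from mouse embryos. The members were the arms of the hairpins miR-10a, miR-10b, miR-196a-1, miR-196a-2 and miR-196b. A read was counted for an arm when its first 20 bases, after removal of the 3′ adapter, were identical to the mature sequence. These 5 hairpins give 9 distinct mature arms, of which 7 had at least 1 read, among 614 mature miRNAs with reads in the series. The group was chosen by the measured level of miR-10a-5p, already seen to stand high at serum 0 h, so that level is a description and supports nothing. The other members belong to the group by genome position.

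The study profiled small RNAs of the same line in 2 kinds of cell-cycle arrest. The serum experiment took cells from 10% serum through 48 h of starvation into 20% serum, with harvests at 0 h (labelled G0), 12 h (G1), 16 h (S), 20 h (G2/M) and 24 h (G1). For the contact experiment, plating was at 12% confluency, and harvests were made at day 0 (asynchronous), day 3 and day 5 (both labelled G0). Each condition was 1 library with no replicate, and no library came from cells before starvation, so 0 h differs from the later times in both arrest and added serum. Ratios between libraries therefore compare those libraries, their intervals cover counting error only, and no test of a condition was possible.

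MicroRNAs are cut from a hairpin precursor as a 5p and a 3p arm, and the arm that is loaded into an Argonaute protein pairs with target mRNAs mainly through its seed, bases 2 to 8. The miR-10 genes sit beside the Hox4 genes and the miR-196 genes beside the Hox9 and Hox10 genes, an arrangement kept across vertebrates. They are known for following the head-to-tail expression domains of their Hox neighbours, and miR-196 for pairing with Hox mRNAs, Hoxb8 among them. Fibroblasts in culture commonly keep a Hox pattern of the body region they came from.

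The 4 5p arms carry nearly all of the reads. They are shown because each pair shares a seed and differs in a single base, so that the whole comparison between miR-10a and miR-10b rests on that base. Capitals mark the seed. The sequences are those of RefSeq for the mouse build GRCm38.p6, written 5′ to 3′.
miR-10a-5p: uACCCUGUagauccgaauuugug
miR-10b-5p: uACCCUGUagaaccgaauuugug
miR-196a-5p: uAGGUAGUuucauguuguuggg
miR-196b-5p: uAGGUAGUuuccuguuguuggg
Counted from 1 at the 5′ end, miR-10a-5p and miR-10b-5p differ by U12A, and miR-196a-5p and miR-196b-5p by A12C. The position lies outside the seed and within the first 20 bases used for counting. The seed ACCCUGU was held by 2 mature sequences of the RefSeq table and the seed AGGUAGU by 2, in both cases the pair shown.

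The hairpins of the miR-10 genes show where the arms lie, with both arms in capitals. They are given because the 5p arms are nearly identical while the 3p arms and the loops differ.
Mir10a: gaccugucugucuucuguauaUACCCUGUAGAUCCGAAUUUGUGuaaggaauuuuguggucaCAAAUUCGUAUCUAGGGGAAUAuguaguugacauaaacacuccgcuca
Mir10b: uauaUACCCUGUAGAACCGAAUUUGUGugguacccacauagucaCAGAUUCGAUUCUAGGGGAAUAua

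In GENCODE M21, on the same build, Mir10a is at chr11:96317165-96317274 on the plus strand, overlaps no transcript and lies 993 bp from Hoxb4. The Mir10b hairpin is at chr2:74726070-74726137 on the plus strand, in an intron of Hoxd3 and Hoxd4 transcripts and in no exon. Mir196a-1 is at chr11:96265164-96265265 (plus strand), in no transcript and 6192 bp from Hoxb9, and Mir196a-2 at chr15:102973350-102973434 (plus strand), in an intron of a Hoxc5 transcript and 1457 bp from Hoxc10. Mir196b, at chr6:52230081-52230165 on the minus strand, overlaps an exon of Hoxa9. The 2 miR-196a hairpins give the same 5p arm, so its reads cannot be divided between them.

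Total reads ranged from 707202 to 8512472 per library and reads counted for a mature miRNA from 132015 (serum 24 h) to 856840 (serum 16 h). The latter made up 1.77% (24 h) to 12.1% (16 h) of reads in the serum libraries. In the contact libraries they made up 44.9% (day 0) to 55.5% (day 3). Levels are given as counts per 1000000 miRNA reads (CPM) after TMM scaling, which assumes that most miRNAs keep their level. TMM factors were 1.05 to 1.43 in the serum libraries and 0.636 to 0.780 in the contact libraries, so levels set across the experiments depend on the scaling. Fibroblast or mesenchymal miRNAs were present in every library, with summed levels of 35134 to 276859 CPM for the 3 of 6 listed miRNAs held by the sequence table. Serum 12 h stood apart by its small variety, with reads for 209 miRNAs against 272 to 471 in the others. In serum 0 h, 28.1% of reads had inserts shorter than 16 nt, against 0.567% to 1.89% elsewhere.

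miR-10a-5p was abundant in the starved cells and scarce in the other 7 libraries. Serum 0 h held 924 reads of it. At 12, 16, 20 and 24 h after serum there were 50, 139, 33 and 17 reads, and on contact days 0, 3 and 5 there were 9, 16 and 36. As scaled levels these were 3257 CPM at 0 h (95% Poisson interval 3051 to 3474) and 180, 154.3, 154.4 and 109 CPM at the later times. The contact libraries held 38.0, 48.4 and 129 CPM. Serum 0 h stood alone. The widest gap among the released libraries, 24 h over 12 h, was 0.603 (0.326 to 1.06). With total miRNA reads as the scaling, 12 h stood higher at 257 CPM against 129 CPM at 24 h, and 16 h over 12 h was 0.631 (0.453 to 0.890), where TMM gave 0.856 (0.616 to 1.21). Whether 12 h exceeded the later times beyond counting error thus depends on the scaling.

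The ratio of serum 0 h to the released libraries was 18.1 for 12 h (95% interval 13.6 to 24.5), 21.1 for 16 h (17.6 to 25.4), 21.1 for 20 h (14.9 to 30.8) and 29.997 for 24 h (18.6 to 51.7). Against contact day 5, which the labels also call G0, the ratio was 25.2 (18.1 to 36.3). It was 67.3 against day 3 (41.2 to 118) and 85.8 against day 0 (45.0 to 188). Reads that start 1 base downstream of the annotated start are left out of these levels. They were 19.3% of miR-10a-5p reads at 0 h, 42.9% on day 3 and 40.0% on day 0, so both ratios depend on the counting. High miR-10a-5p was thus a property of 1 of the 3 libraries labelled G0. In the order of levels, the step from 0 h to 12 h and the step from 24 h down to contact day 3 (2.24, 1.07 to 4.74) were the only neighbouring pairs whose interval lay above 1.

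A miRNA was counted as higher at 0 h when it had at least 100 reads in 1 of the serum libraries, stood at least 2-fold above each released library and had every interval above 1. Of the members, miR-10a-5p and miR-10b-5p had enough reads, and miR-10a-5p met the rule. Over all 194 miRNAs with enough reads the rule was met by 10, which is 5.15%, and 11 were lower (5.67%). Because miR-10a-5p was chosen for this contrast, nothing is read from that share. Ranked by the ratio to the closest released library, miR-10a-5p (18.1) had rank 4 of 192, after the epithelial miR-141-3p, miR-200b-3p and miR-200c-3p, and the next was miR-503-5p at 4.24. With serum 12 h left out, which was decided after the data were seen, the closest ratio was 21.1 with 5.24% of 191 miRNAs higher and 9.42% lower.

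**Figure D1:**
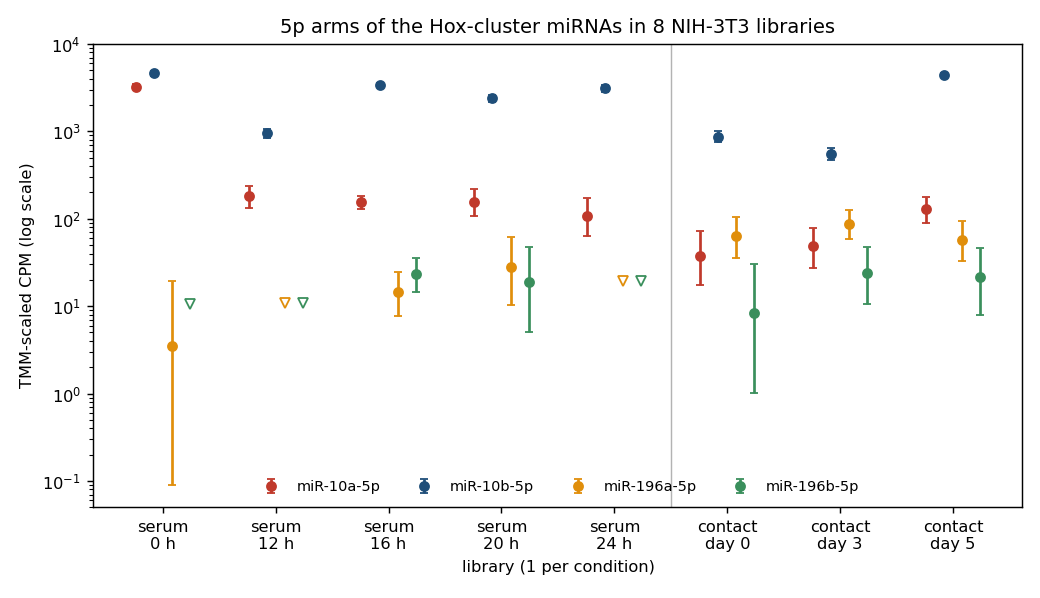
TMM-scaled level (CPM, log axis) of the 4 5p arms in each library; points are single libraries, bars are 95% Poisson intervals for counting error, and open triangles mark the level of 3 reads where a library had 0. miR-10a-5p stands at 3257 CPM in serum 0 h and at 38.0 to 180 CPM in the other 7 libraries, while miR-10b-5p stays between 551 and 4600 CPM.

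miR-10b-5p was the main product of these genes in all 8 libraries, with no library standing alone. It had 1305 reads at serum 0 h and 264, 3072, 509 and 489 at 12, 16, 20 and 24 h. The contact libraries held 207, 182 and 1234 reads on days 0, 3 and 5. Scaled levels were 4600 CPM at 0 h (4354 to 4857), 951 at 12 h, 3410 at 16 h, 2382 at 20 h and 3123 at 24 h. In the contact experiment they were 873, 551 and 4423 CPM.

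Starved cells held 1.35 times the miR-10b-5p of the 16 h library (1.26 to 1.44), 1.47 times that of 24 h, 1.93 times that of 20 h and 4.84 times that of 12 h (4.23 to 5.54). Serum 0 h was the highest serum library, but by less than 2-fold over 3 of the 4 released ones, and the largest ratio was against 12 h, the library with the fewest miRNAs. Between released libraries, 16 h stood 3.58-fold above 12 h (3.16 to 4.08). The same 2-fold rule put 34.6% of 191 miRNAs higher at 16 h than at 12 h and 13.6% lower, and by this ratio miR-10b-5p had rank 40. Among the remaining 3 released libraries it varied between 2382 and 3410 CPM, with 20 h at 0.699 of 16 h (0.635 to 0.767).

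In the contact experiment miR-10b-5p did not keep 1 direction. Day 3 stood at 0.631 of day 0 (0.514 to 0.774) and day 5 at 5.07 times day 0 (4.37 to 5.90). Day 5 was 8.03-fold above day 3 (6.87 to 9.43), which was rank 6 among 143 miRNAs, 20.3% of them higher on day 5 by the 2-fold rule and 21.7% lower. The rule that asks for both later days on the same side of day 0 was met by 22.1% of 145 miRNAs as higher and 2.76% as lower, and miR-10b-5p was not among them. With DESeq2 size factors the same rule gave 26 higher and 18 lower in place of 32 and 4. The summed fibroblast or mesenchymal list stood at 36509, 35134 and 276859 CPM on days 0, 3 and 5, nearly all of it miR-199a-3p (27173, 27073 and 266948 CPM). Of the other counted members, miR-199a-5p was also highest on day 5 (1872, 1904 and 7818 CPM), while miR-214-3p was lowest then (7464, 6157 and 2093 CPM). The part of these miRNAs in the miR-10b-5p difference was not tested.

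miR-10a-5p in the contact libraries rested on few reads. Its day 5 level was 3.40 times that of day 0 (1.61 to 8.03) and 2.66 times that of day 3 (1.44 to 5.14). For day 3 over day 0 the ratio was 1.28 (0.531 to 3.28), which leaves the direction unresolved, and with DESeq2 size factors it was 0.960. A difference between those 2 days was not detectable at this depth.

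Over both experiments the order of miR-10b-5p was serum 0 h, contact day 5, serum 16, 24, 20 and 12 h, contact day 0 and contact day 3. Serum 0 h and contact day 5 did not differ beyond counting error under TMM (ratio 1.04, 0.961 to 1.13), nor did serum 16 and 24 h, or serum 12 h and contact day 0 (1.09, 0.905 to 1.31). With total miRNA reads as the scaling, the ratio of serum 0 h to contact day 5 was 2.05 (1.89 to 2.21), and contact day 5 at 2815 CPM lay below serum 16 h at 3585 CPM. miR-10a-5p kept the highest level at serum 0 h under that scaling too, at 49.6 times contact day 5.

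Since both 5p arms carry the seed ACCCUGU, their reads can also be summed as the supply of that seed. The sum was 7858 CPM at serum 0 h (7535 to 8191) against 1131, 3564, 2536 and 3232 CPM at 12, 16, 20 and 24 h. On contact days 0, 3 and 5 it was 911, 599 and 4552 CPM. The seed family thus took 0.984% of miRNA reads in starved cells, 0.162% to 0.383% in released cells and 0.0468% to 0.290% in the contact libraries. The sum at 0 h holds the miR-10a-5p level for which the group was chosen, so nothing is read from its height. miR-10b-5p alone took 0.576% at 0 h and 0.136% to 0.370% in released cells. Outside serum 0 h the sum was mostly miR-10b-5p, with at least 5.28 of its reads for each miR-10a-5p read.

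The ratio of miR-10a-5p to miR-10b-5p within a library needs no scaling between libraries. At serum 0 h there were 0.708 miR-10a-5p reads per miR-10b-5p read (95% interval 0.650 to 0.771), so miR-10a-5p made up 41.5% of the pair. The ratio was 0.189 at 12 h (0.137 to 0.257), 0.0452 at 16 h (0.0379 to 0.0536), 0.0648 at 20 h (0.0441 to 0.0922) and 0.0348 at 24 h (0.0201 to 0.0562). Contact days 0, 3 and 5 gave 0.0435 (0.0196 to 0.0842), 0.0879 (0.0492 to 0.147) and 0.0292 (0.0203 to 0.0406). The interval at 0 h lay above those of the other 7 libraries. That of 12 h lay above the intervals of the remaining libraries except contact day 3, with which it overlapped. At 12 h the 50 miR-10a-5p reads fell on 2 distinct inserts, 98% of them in the commonest. The interval takes each read as independent and may be too narrow there.

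**Figure D2:**
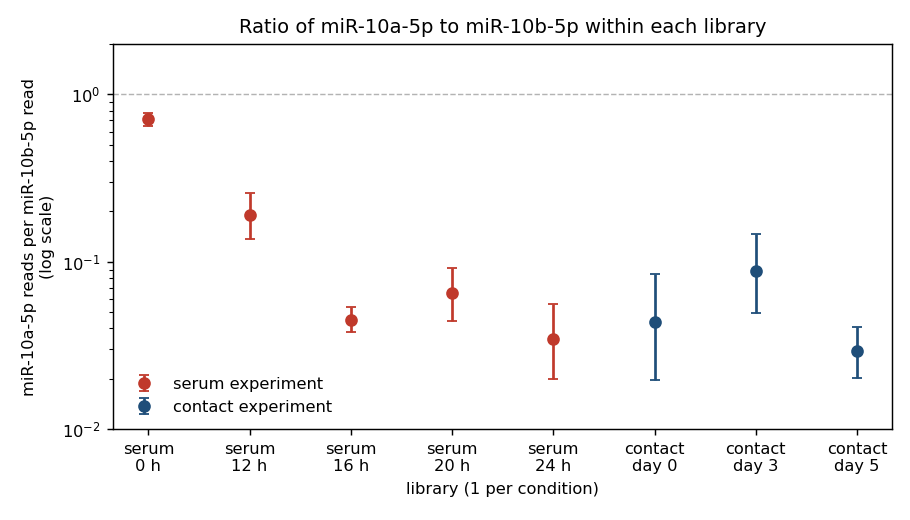
Reads of miR-10a-5p per read of miR-10b-5p in each library (log axis); points are single libraries, bars are 95% exact conditional binomial intervals, and the dashed line marks equal reads. The ratio was 0.708 at serum 0 h, 0.189 at 12 h and 0.0292 to 0.0879 in the other 6 libraries.

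Because 1 base separates the pair, miscalled reads could move between them. Reads of the pair with either of the other 2 bases at position 12 numbered 4 at serum 0 h (0.179% of the pair), 1 at 16 h (0.0311%) and 0 in the other 6 libraries. Reads with 1 mismatch at any other of the first 20 bases came to 0.0264% to 0.292% of reads per position. Both shares lie far under the 41.5% that miR-10a-5p made up at 0 h, and also under the 2.83% on contact day 5, the lowest share of the pair that miR-10a-5p took.

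Several forms made up miR-10a-5p at 0 h. The most common was the 22-nt uACCCUGUagauccgaauuugu, with 649 reads at 0 h against 49, 124, 20 and 15 at 12, 16, 20 and 24 h and 7, 10 and 30 on contact days 0, 3 and 5. The full 23-nt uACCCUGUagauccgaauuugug had 235 reads at 0 h and 0 to 15 elsewhere. A form that starts 1 base later, aCCCUGUAgauccgaauuugug, had 135 reads at 0 h and 0 to 15 elsewhere. The 3 forms were picked as the commonest at 0 h and their reads are not scaled for depth. Nothing is therefore read from each being highest in that library.

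Inserts of 23 nt made up 25.5% of miR-10a-5p reads at 0 h (22.8 to 28.5%) and 12.6% of miR-10b-5p reads in the same library (10.8 to 14.5%). At 16 h, the next deepest for miR-10a-5p, the shares were 10.8% (6.17 to 17.2%) and 10.8% (9.73 to 12.0%). The 3′ end of miR-10a-5p was thus longer at 0 h than at 16 h beyond counting error, while the interval of miR-10b-5p at 0 h overlapped that at 16 h. In the other 6 libraries miR-10a-5p had only 9 to 50 reads. Its 23-nt share was 0 at 12 h (up to 7.11%), 0 at 20 h (up to 10.6%) and 8.33% on contact day 5 (1.75 to 22.5%). These intervals lay below that of 0 h, though the reads at 12 h and 20 h fell on 2 distinct inserts each. Those of 24 h (1.46 to 36.4%) and contact days 0 (2.81 to 60.0%) and 3 (7.27 to 52.4%) overlapped it. For miR-10b-5p, 12 h (2.65 to 8.27%) and 24 h (3.84 to 8.17%) also lay below 0 h.

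A start 1 base downstream moves the seed by 1 base, to CCCUGUA, which is the seed of 0 mature sequences in the RefSeq table. Of reads starting within 2 bases of the annotated miR-10a-5p start, 19.3% had this shift at 0 h (17.1 to 21.7%), 22.3% at 16 h (16.5 to 29.2%), 26.1% at 24 h (10.2 to 48.4%), and 40.0%, 42.9% and 34.5% on contact days 0, 3 and 5. It was seen in 0 of 50 reads at 12 h and 0 of 36 at 20 h. For miR-10b-5p the share was 11.2% at 0 h (9.63 to 12.9%), then 9.37%, 9.11% and 7.01% at 16, 20 and 24 h, and 17.5%, 21.6% and 14.8% on contact days 0, 3 and 5. Serum 12 h had 0 of 266 such reads (95% interval up to 1.38%). That interval takes each read as independent, though the 264 counted miR-10b-5p reads there fell on 4 distinct inserts. The shift was more frequent in miR-10a-5p than in miR-10b-5p beyond counting error at 0 h, at 16 h, at 24 h and on contact day 5, and in no library was the reverse seen beyond it.

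**Figure D3:**
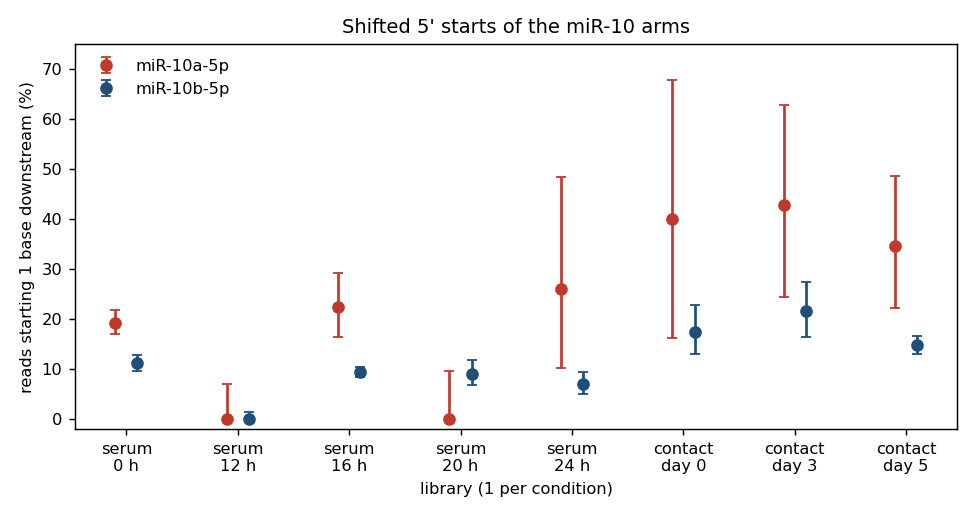
Share of reads (percent) that start 1 base downstream of the annotated 5p start, for miR-10a-5p and miR-10b-5p in each library; bars are 95% Clopper-Pearson intervals. miR-10a-5p had 19.3% at serum 0 h against 11.2% for miR-10b-5p, and both had 0 at serum 12 h.

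The 3p arms were rare. miR-10a-3p had 2 reads in all, both at serum 16 h, which is 0.163% of all miR-10a reads (0.0198 to 0.588%). At 0 h it had 0 reads beside 924 of the 5p arm, which allows a share of up to 0.325%. miR-10b-3p had 0, 0, 23, 13 and 8 reads at serum 0, 12, 16, 20 and 24 h and 3, 9 and 20 on contact days 0, 3 and 5, together 1.04% of miR-10b reads (0.817 to 1.29%).

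Library by library, the miR-10b 3p share was 0.743% at 16 h (0.472 to 1.11%), 2.49% at 20 h (1.33 to 4.22%) and 1.61% at 24 h, and 1.43%, 4.71% (2.18 to 8.76%) and 1.59% on contact days 0, 3 and 5. At 0 h no read of miR-10b-3p was counted, which allows up to 0.230%, a limit below the lower bound in each of the 6 libraries with reads of it. That result depends on the counting. Whole inserts were also matched to the hairpin, with a start within 2 bases of the annotated arm start. The 3p arm then had 18 reads at 0 h (1.22%, 0.723 to 1.92%), and 2.43% over all libraries.

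miR-196a-5p and miR-196b-5p were near the limit of detection in the serum experiment. miR-196a-5p had 1, 0, 13, 6 and 0 reads at 0, 12, 16, 20 and 24 h, or 3.53, 0, 14.4, 28.1 and 0 CPM. At a count of 0 the limit of 3 reads corresponds to 10.8 CPM at 12 h and 19.2 CPM at 24 h, so an absence there is not shown. miR-196b-5p had 0, 0, 21, 4 and 0 reads, with 23.3 CPM at 16 h and 18.7 CPM at 20 h. Neither arm was among the miRNAs with enough reads for a count.

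In the contact libraries miR-196a-5p had 15, 29 and 16 reads on days 0, 3 and 5, or 63.3, 87.8 and 57.4 CPM. Day 3 over day 0 was 1.39 (0.720 to 2.79) and day 5 over day 0 was 0.907 (0.420 to 1.97), so the 3 days did not differ beyond counting error. miR-196b-5p had 2, 8 and 6 reads, or 8.43, 24.2 and 21.5 CPM. miR-196a-5p at serum 0 h stood at 0.0615 of contact day 5 (0.00147 to 0.396), which rests on 1 read against 16. With total miRNA reads as the scaling it was 0.121 (0.00288 to 0.778). These reads cannot be divided between Mir196a-1, which shares the Hoxb cluster with Mir10a, and Mir196a-2.

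The ratio of miR-196a-5p to miR-196b-5p was 0.619 at serum 16 h (0.285 to 1.30) and 1.5 at 20 h (0.356 to 7.23). Contact day 0 gave 7.5 (1.74 to 67.6), day 3 gave 3.63 (1.62 to 9.18) and day 5 gave 2.67 (0.991 to 8.32). The interval at 16 h lay below those of contact days 0 and 3, but this depends on the counting. With whole inserts matched in the hairpin, the ratio at 16 h was 2.14 (0.822 to 6.21) and overlapped those of day 0 (14, 2.13 to 592) and day 3 (4.43, 1.91 to 11.9). Of the 3p arms, miR-196a-1-3p had 1 read, on contact day 5, and miR-196a-2-3p and miR-196b-3p had 0 reads in all 8 libraries.

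The close relatives in sequence, miR-99a, miR-99b and miR-100, lie outside the Hox clusters and carry the seed ACCCGUA. They are shown because they resemble the miR-10 arms over most of their length and differ in the seed.
miR-99a-5p: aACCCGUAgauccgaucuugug
miR-99b-5p: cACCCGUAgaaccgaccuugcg
miR-100-5p: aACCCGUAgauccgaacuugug
These 3 had enough reads in the serum libraries and 0 of them met the rule for 0 h. Over all 194 miRNAs with enough reads, 5.15% met it as higher and 5.67% as lower, so no contrast is drawn from that count. The level of miR-99a-5p was 1012 CPM in starved cells against 580, 809, 683 and 466 CPM in released ones. Levels of miR-99b-5p were 3338 CPM at 0 h and 3178, 3344, 4272 and 3896 CPM later. For miR-100-5p they were 980 CPM at 0 h and 440, 937, 1165 and 575 CPM. The summed relatives stood at 5330 CPM at 0 h, within the 4197 to 6120 CPM of the released libraries. The summed miR-10 pair holds the miR-10a-5p level for which the group was chosen, so the sums are not contrasted.

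In the contact libraries miR-99b-5p had 8303, 6342 and 2982 CPM on days 0, 3 and 5, with day 5 at 0.359 of day 0. It moved opposite to miR-10b-5p between days 3 and 5. miR-100-5p stood at 616, 357 and 527 CPM and miR-99a-5p at 228, 263 and 258 CPM.

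miR-615, the other miRNA gene of a Hox cluster, lies within Hoxc5. Its 3p arm had 28, 47, 45, 63 and 11 reads at serum 0, 12, 16, 20 and 24 h and 6, 6 and 9 on contact days 0, 3 and 5, or 98.7, 169, 49.9, 295 and 70.3 CPM and 25.3, 18.2 and 32.3 CPM. Serum 0 h lay inside the range of the released libraries. miR-615-5p had 0, 0, 2, 0 and 8 reads and 1, 6 and 0 reads in the same order.

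**Figure D4:**
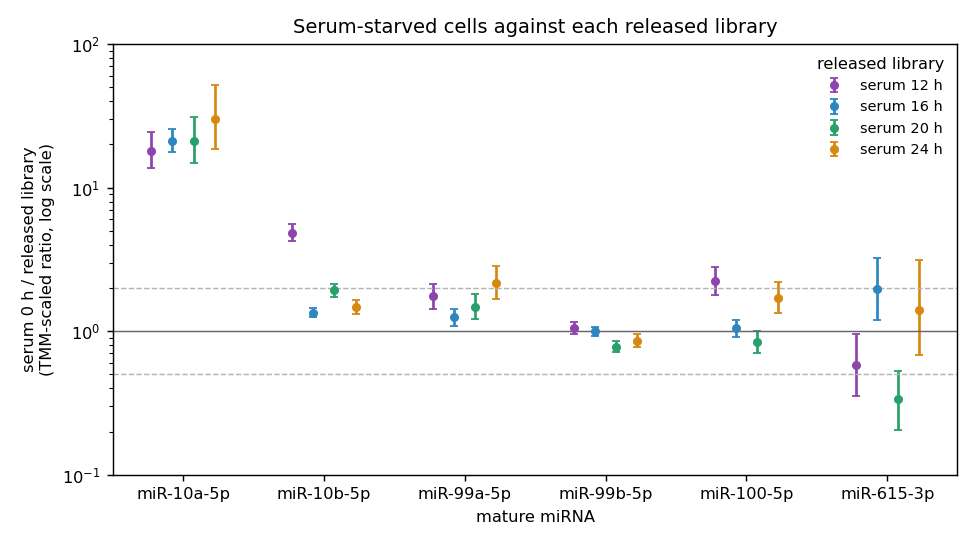
Ratio of the TMM-scaled level at serum 0 h to that in each released library (log axis) for the miR-10 5p arms and their relatives; bars are 95% exact conditional binomial intervals, and dashed lines mark 2-fold. The 4 ratios of miR-10a-5p are 18.1 or more, while those of miR-10b-5p lie between 1.35 and 4.84.

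Markers of other cell types were counted beside miR-10a-5p. The epithelial list (the miR-200 family, miR-203 and others, 7 of 8 in the sequence table) had reads for 5 miRNAs at serum 0 h, 725 reads in all or 2556 CPM (2373 to 2749). The other 7 libraries had 0 to 13 reads, or 0 to 56.2 CPM. miR-200c-3p had 354 reads at 0 h (1248 CPM), miR-141-3p 155 (546 CPM), miR-200b-3p 143 (504 CPM), miR-203-3p 40 (141 CPM) and miR-200a-3p 33 (116 CPM). miR-429-3p and miR-205-5p, also defining markers, were at 0. miR-200c-3p reads at 0 h fell on 7 distinct inserts and miR-141-3p reads on 8, against 7 for the counted miR-10a-5p reads. Reads of miR-200b-3p, miR-200a-3p and miR-142a-3p fell on 2 distinct inserts each, with 90.2%, 93.9% and 69.4% in the commonest, and those of miR-203-3p on 1. There were 2.61 miR-10a-5p reads for each miR-200c-3p read.

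The blood list (5 of 7 in the table) had 62 reads at 0 h, all of miR-142a-3p (219 CPM), with miR-142a-5p, miR-223-3p, miR-144-3p and miR-451a at 0. The other libraries held 0 to 4 reads of that list. Lists of liver, gut or kidney and of endothelial miRNAs had 0 reads at 0 h. Summed neural markers (680 CPM at 0 h, 0 to 967 elsewhere), pluripotent or germ line markers (183 CPM, 2.22 to 1020 elsewhere, highest at 12 h) and muscle markers (264 CPM, 88.9 to 801 elsewhere) were within the range of the other libraries. Of their counted members, miR-295-3p (134 CPM, 0 to 33.7 elsewhere) and miR-219a-5p (38.8 CPM, 0 to 25.1 elsewhere) were highest at 0 h, the rest not. The epithelial and blood lists and the share of short inserts thus moved with miR-10a-5p at serum 0 h, and their part in its level was not tested. The 7 other libraries hold no second case of high miR-10a-5p with which to compare. In such bulk samples a change in the share of cells of a type cannot be told apart from a change in RNA per cell.

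**Figure D5:**
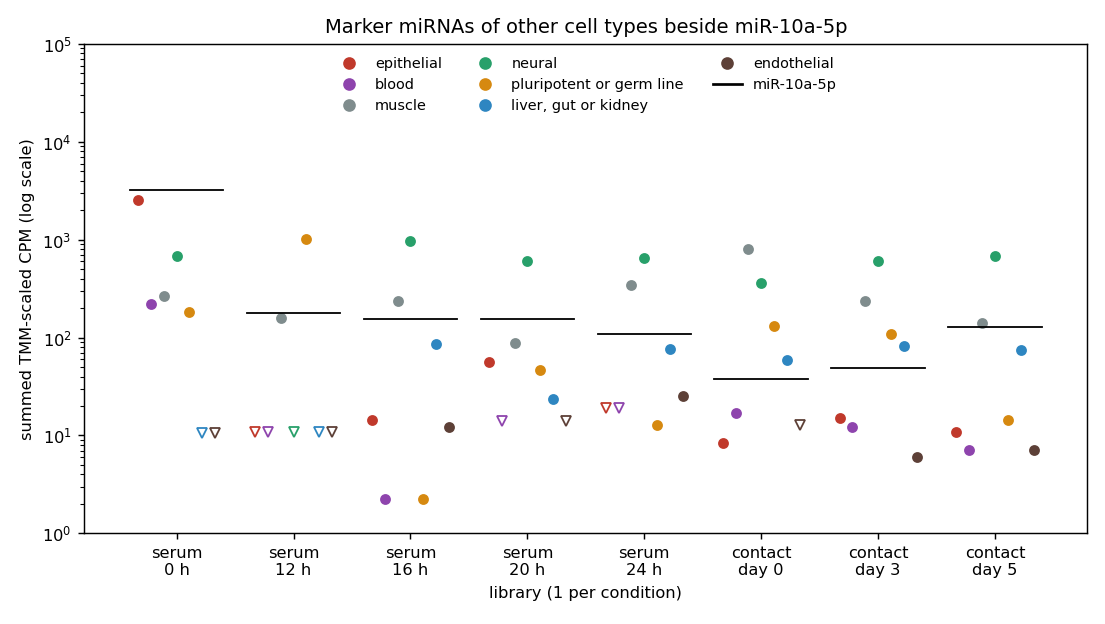
Summed TMM-scaled level (CPM, log axis) of the marker lists of 7 other cell types in each library, with miR-10a-5p as a black line; open triangles mark the level of 3 reads where a list had 0. The epithelial list stands at 2556 CPM at serum 0 h and at 0 to 56.2 CPM elsewhere.

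The miRNAs whose levels were most like those of miR-10a-5p were taken from 195 with at least 100 reads in 1 library, by Pearson r of log2(CPM + 10) over the 8 libraries, as a description. They were miR-200b-3p and miR-141-3p (both 0.92), miR-200c-3p (0.90), miR-154-3p (0.84) and miR-496a-3p (0.78). The first 3 rest on serum 0 h, since miR-200b-3p and miR-141-3p had 0 reads in the other 7 libraries. miR-10b-5p came at rank 23 with r of 0.60. For miR-10b-5p the nearest were miR-127-5p (0.89) and miR-434-5p (0.89) of the imprinted Dlk1-Dio3 locus, miR-27b-3p (0.87), miR-199a-3p, which is identical to miR-199b-3p (0.87), and miR-152-3p (0.79). miR-127-5p stood at 67.5, 109 and 1778 CPM on contact days 0, 3 and 5. All points share the depth and scaling of their libraries.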

How the data were processed

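The deposited files give the distinct 36-nt reads of each library with the count of times each was sequenced, and the 3′ adapter still in the read. What the authors did before deposit (read caller, filters, build) is not given in the sources used here, and per the labels library preparation followed an earlier publication. In Python 3.11.15 (numpy 2.4.6, scipy 1.17.1) a 14-base adapter was learned from the bases after 22-nt miRNAs, and removed where at least 6 bases were seen with 1 mismatch per 8. Inserts of 16 to 30 nt were kept and counted for a RefSeq mature sequence by their first 20 bases (1679 sequences, a table that is not complete). Counts were scaled by TMM (edgeR 4.0.16, R 4.3.3). The reads carry no molecular identifiers, so copies of 1 molecule cannot be told apart and every interval takes each read as independent. Intervals are 95% exact Poisson, Clopper-Pearson or conditional binomial and cover counting error only, and a count of 0 allows 3. Depth ranged from 132015 to 856840 miRNA reads. The rule for ratios was checked on simulated counts that held counting error alone, so the check does not cover other differences between libraries. Figures used matplotlib 3.10.9.

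Every arm with reads, fixed relatives and the 5 nearest miRNAs by correlation were named. The members and the lists were chosen with earlier results of these data known. Alternatives were total miRNA reads or DESeq2 1.42.0 size factors as scaling, other read minimums, 18 bases, whole inserts, 20 to 25 nt, a stricter adapter match and, added after the data were seen, serum 12 h left out.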

Additional observations from a re-analysis of the deposited data

How the results depend on the processing

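The ratio of miR-10a-5p at serum 0 h to its closest released library lay between 15.8 and 21.1 over the settings tried. Of the alternative values for the principal results, 103 lay within the counting interval of the reported value or, for counts of miRNAs, within a set fold of it. The other 17 lay outside. Few reads give wide intervals, so a value inside need not be close. For miR-10a-5p, contact day 3 over day 0 was 1.28 and, with whole inserts, 0.933, which lay inside. For miR-10b-5p the closest ratio was 1.55 with total reads as scaling, contact day 3 over day 0 was 0.475 with DESeq2 size factors and 0.508 with whole inserts, and day 5 over day 0 was 4.32 with total reads and 3.67 with DESeq2. With whole inserts the miR-10a-5p to miR-10b-5p ratio at 0 h was 0.832 and the miR-10b 3p share 2.43%. Counts of miRNAs higher at 0 h were 4 with a minimum of 500 reads and 20 with 30, and of those lower 3, 22, and 18 without serum 12 h. In the contact comparison 15 were higher with 500 reads, and 18 (DESeq2), 1 (500 reads), 10 (30 reads) and 11 (whole inserts) were lower. miR-99a-5p at 16 h over 12 h was 0.985 with whole inserts, against 1.39. The cause was not tested, except that a minimum changes how many miRNAs are compared. Total reads in place of TMM add 0.25 to every log2 ratio of 0 h to 16 h, take 0.19 from 0 h to 12 h (−0.19) and add 0.98 to 0 h over contact day 5. Serum 12 h was the only library left out, and since each condition has 1 library no replicate could be. No paired analysis was possible because each condition has 1 library. The few reads of miR-196 and of the 3p arms limit what could be compared.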
